A study of Mus musculus with 15 samples.

Results

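The genes described here mostly encode the vacuolar proton pump and the coat, tethering and sorting proteins that carry cargo to the lysosome. They were chosen by symbol from the RefSeq gene table for GRCm38.p6, which is mm10: protein-coding genes whose symbols begin with Atp6, with Vps and a digit, or with Ap1 to Ap5 followed by a subunit letter (a, b, d, e, g, m, s or z) and a digit. The rule found 89 genes among 21887 coding genes on the autosomes and sex chromosomes. The symbols alone decide which genes belong, but this set was proposed with earlier results of these data known. For each gene it was asked whether p53, the stress-activated transcription factor encoded by Trp53, had a called binding region in liver, spleen or thymus, either within the gene or up to 5 kb away.

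The vacuolar ATPase acidifies lysosomes and endosomes. Its V1 sector sits in the cytosol and hydrolyses ATP, and its V0 sector lies in the membrane and moves protons. Adaptor protein (AP) complexes select cargo for transport vesicles, and Vps proteins, named after yeast mutants in vacuolar protein sorting, form the tethers, sorting coats and lipid-transfer proteins of the endosomal system. In hepatocytes these pathways recycle surface receptors and feed autophagic cargo to lysosomes, and in lymphocytes they also serve antigen handling. Lysosomal genes are known targets of TFEB, which binds the CLEAR element.

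The series is a p53 ChIP-seq study of wild-type mice, in which DNA fragments recovered with an antibody are sequenced. Each of the 3 organs has 5 libraries: 2 from mice irradiated with 2 Gy of X-rays and taken after 3 h, 2 from untreated mice, and 1 of input chromatin, sequenced without immunoprecipitation. The sources used here do not give strain, age or antibody. There were 3872 regions for liver, 2604 for spleen and 2405 for thymus, and the labels attach each list to all 5 libraries of its organ. The list names, however, carry the terms irrad and IgG (the usual nonspecific control antibody), and no library is labelled IgG, so it is not known which libraries and which control stand behind a region. There is thus 1 measurement per organ, no spread between replicates, and no contrast of irradiated with untreated mice, and the read depth is unknown. Each organ is a mixture of cell types, and the lists do not say which cells gave a region. They hold no expression values, so the organ labels were not checked against marker genes. The score of a region is the authors' own value on an unstated scale, and it is given below as a rank percentile within its list, where 100 is the highest.

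Before the counts, the promoters of 4 genes show where regions fell. Each is the RefSeq window of 300 bases, 250 before and 50 after an annotated gene start (GRCm38.p6, printed 5′ to 3′ on the strand of the gene), and capitals mark the bases that lie inside the called liver region. Atp6v1f, a subunit of the central stalk of V1, is shown because its region ranked highest in liver among those over a promoter window. Vps36, a subunit of ESCRT-II, which sorts ubiquitinated cargo, had its region in all 3 lists. Vps13a, a lipid-transfer protein, shared its region between liver and spleen. Ap1g1, the gamma subunit of AP-1, shared a narrow region between liver and thymus.
Atp6v1f (chr6:29467533-29467832, plus strand): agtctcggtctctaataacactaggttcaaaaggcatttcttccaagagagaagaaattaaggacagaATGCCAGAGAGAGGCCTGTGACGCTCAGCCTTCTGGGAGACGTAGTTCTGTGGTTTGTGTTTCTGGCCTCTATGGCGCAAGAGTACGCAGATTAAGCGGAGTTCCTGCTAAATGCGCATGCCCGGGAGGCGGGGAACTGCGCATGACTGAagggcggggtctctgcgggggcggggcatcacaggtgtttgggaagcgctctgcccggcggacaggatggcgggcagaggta
Vps36 (chr8:22192583-22192882, plus strand): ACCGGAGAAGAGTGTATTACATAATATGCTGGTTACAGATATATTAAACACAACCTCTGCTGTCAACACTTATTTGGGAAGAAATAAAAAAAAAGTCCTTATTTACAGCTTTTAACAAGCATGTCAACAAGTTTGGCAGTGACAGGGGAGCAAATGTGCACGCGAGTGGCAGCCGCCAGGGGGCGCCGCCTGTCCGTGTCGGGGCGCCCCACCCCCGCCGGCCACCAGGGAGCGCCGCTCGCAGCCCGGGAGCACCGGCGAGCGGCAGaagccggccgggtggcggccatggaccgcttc
Vps13a (chr19:16780884-16781183, minus strand): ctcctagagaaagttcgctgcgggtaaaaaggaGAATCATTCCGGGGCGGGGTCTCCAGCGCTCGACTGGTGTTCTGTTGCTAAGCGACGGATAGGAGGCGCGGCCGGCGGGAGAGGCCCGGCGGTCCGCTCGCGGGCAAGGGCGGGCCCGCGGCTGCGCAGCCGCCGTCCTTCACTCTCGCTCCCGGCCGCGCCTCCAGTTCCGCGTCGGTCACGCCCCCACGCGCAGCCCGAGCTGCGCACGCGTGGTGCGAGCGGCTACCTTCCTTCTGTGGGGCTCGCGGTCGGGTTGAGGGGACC
Ap1g1 (chr8:109778333-109778632, plus strand): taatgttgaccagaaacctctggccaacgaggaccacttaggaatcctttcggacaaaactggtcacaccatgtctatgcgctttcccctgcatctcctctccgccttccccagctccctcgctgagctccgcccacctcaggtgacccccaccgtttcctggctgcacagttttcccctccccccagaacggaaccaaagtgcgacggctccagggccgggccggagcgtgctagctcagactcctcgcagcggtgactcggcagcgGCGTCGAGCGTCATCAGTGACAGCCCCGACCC
The liver regions covered 150, 268, 267 and 32 of the 300 bases in these windows. In Atp6v1f the covered stretch ended before the gene start, whereas in Ap1g1 it lay after it.

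Within the 5 kb limit, pump, Vps and adaptor genes had a liver region at 2.14 times the rate of all coding genes. Their share for spleen and thymus was near that of coding genes at this limit, but not at gene ends. A liver region was found for 29 of the 89 genes, or 32.6% (exact Clopper-Pearson 95% interval 23.0 to 43.3), against 15.2% of all coding genes. In spleen 9 genes had a region, or 10.1% (4.73 to 18.3), against 8.11% of all coding genes. In thymus 6 had a region, or 6.74% (2.51 to 14.1), against 7.17%. Counted within 1 kb of either gene end, the ratio to coding genes was 2.60 for liver (21 genes), 2.32 for spleen (6) and 1.81 for thymus (4). At gene ends of the full lists the higher share was thus not particular to liver, though few genes stand behind the spleen and thymus values. Those spleen regions ranked low, from percentile 2.07 to 44.5, and the thymus ones ran from 0.125 to 58.5. With the lower-scoring 50% of each list removed, the ratios within 5 kb were 2.15 for liver, 0.673 for spleen and 0.731 for thymus. No interval was computed for the counts at gene ends. The intervals cover counting error over genes and say nothing of variation between mice.

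The genes are longer than average, with a median of 25938 bp against 17169 bp for coding genes. When coding genes were split into 10 length classes and the share with a region was averaged over the classes of the 89 genes, 17.6% would have had a liver region, 9.37% a spleen region and 8.32% a thymus region. These shares correspond to 15.6, 8.34 and 7.41 genes, beside the 29, 9 and 6 observed. The liver count was 1.86 times the length-class value, while the spleen and thymus counts were 1.08 and 0.810 times theirs. No test was made, because each organ has 1 list and the genes were proposed with results of these lists known.

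**Figure D1:**
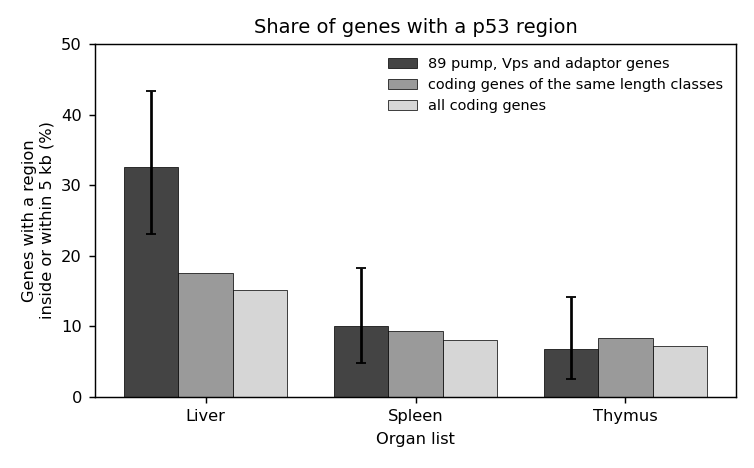
Percentage of genes with a called region inside or within 5 kb, by organ list, for the 89 pump, Vps and adaptor genes (dark bars, with exact 95% intervals), for coding genes averaged over the same length classes, and for all coding genes. The dark bar stands above both others in liver (32.6% against 17.6% and 15.2%). It stands near them in spleen (10.1% against 9.37% and 8.11%) and thymus (6.74% against 8.32% and 7.17%).

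All 29 genes with a region in any list had one in liver, as did 97.1% of coding genes with a region in any list. Of these, 18 (62.1%) had a region in liver alone, against 39.9% of the 3431 such coding genes. In all 3 lists there were 4 genes (13.8%, against 35.4% of those coding genes), 5 had regions in liver and spleen and 2 in liver and thymus. A region in spleen or thymus without one in liver was found for 0 of the 29, near the 2.91% of those coding genes. These coding shares count regions at and away from gene ends alike. Of the 1397 coding genes with a liver region over a promoter window, 858 had such a region in the liver list alone. One common to all 3 lists was found for 192. A large liver-alone share was thus not particular to the 29 genes. The liver list is the longest, and list length and organ cannot be told apart in the number of genes found. With lists shortened to equal length, 20 of the 89 genes (22.5%) had a liver region, 6 (6.74%) a spleen region and 6 a thymus region, against 10.2%, 7.01% and 7.17% of coding genes. At that length 1 of 21 genes with a region, Ap1g1, had none in liver (4.76%, against 22.8% of coding genes with a region). When regions at gene ends were left out of the full lists, the count was 1 of 4, Vps13c, against 9.30% of such coding genes. The liver region of Vps13c, at percentile 92.7, spanned its gene end and was removed by that setting.

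**Figure D2:**
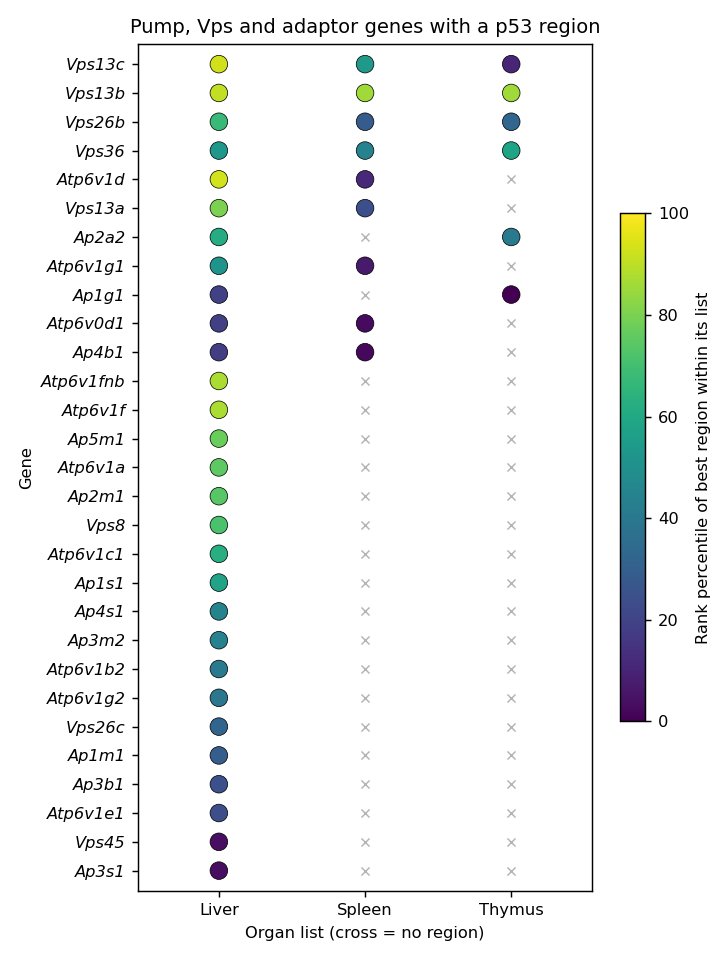
Rank percentile of the best region of each gene within its organ list (colour, 0 to 100) for the 29 genes with a region in any list; columns are the organ lists and a cross marks no region. All 29 genes have a point in liver, 9 in spleen and 6 in thymus.

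The V1 sector of the pump carried most of the pump's regions. A liver region was found for 8 of its 13 genes (61.5%, against 15.2% of all coding genes). V0 had 1 of 9 genes (11.1%, near that coding share), and the accessory proteins had 0 of 3. In spleen 2 V1 genes and 1 V0 gene of the 25 pump genes had a region, and in thymus no pump gene did. The shares of coding genes there were 8.11% and 7.17%. The groups are small and were not tested against each other.

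The 8 V1 genes cover most of the rotary machine. Atp6v1a encodes the catalytic subunit, Atp6v1b2 the broadly expressed form of the B subunit, Atp6v1c1, Atp6v1e1, Atp6v1g1 and Atp6v1g2 parts of the peripheral stalks, and Atp6v1d and Atp6v1f the central stalk. Atp6v1d had the highest rank of the pump genes. Its best region (chr12:78842501-78842750) lay 232 bp beyond the end of the gene, 19012 bp downstream of the annotated start, at percentile 93.3 in liver and 11.3 in spleen. Mpp5 lay 1787 bp from that region. A separate liver region (chr12:78862001-78862150, percentile 74.9) spanned the other end of Atp6v1d and touched Eif2s1, a translation initiation factor gene. The Atp6v1f region (chr6:29467601-29467750) had percentile 87.3 in liver, was in that list alone, and centred 107 bp upstream of the start. The same region lay 3687 bp from Atp6v1fnb, a gene named for being the neighbour of Atp6v1f, so this pair of genes rests on a common region. Without Atp6v1fnb, 28 of 88 genes (31.8%) had a liver region, against 15.2% of all coding genes.

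The other V1 regions lay within 1 kb of an end of their own gene, except that of Atp6v1g2. The Atp6v1a region (chr16:44139701-44139950) was in liver alone at percentile 75.2, spanned the gene end and touched Naa50, which encodes an N-terminal acetyltransferase. The Atp6v1c1 region (chr15:38661801-38661950) was in liver alone at 62.6 and spanned the gene end. Atp6v1g1 had a region of 50 bp just inside the gene (chr4:63544801-63544850) at percentile 51.6 in liver and 6.76 in spleen. Atp6v1b2 (percentile 40.9), Atp6v1g2 (39.7) and Atp6v1e1 (23.7) had regions in liver alone. The Atp6v1b2 region spanned the gene end and also touched Slc18a1. That of Atp6v1g2, a form enriched in brain, lay 2834 bp outside the gene and overlapped Ddx39b, an RNA helicase gene.

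The V1 genes without a region were Atp6v1h, the regulatory H subunit, and Atp6v1g3, Atp6v1b1, Atp6v1c2 and Atp6v1e2, which are known as tissue-restricted forms. In V0, Atp6v0d1, which links the membrane ring to the rotor, had a region that spanned the gene end (chr8:105566001-105566250) at percentile 18.6 in liver and 2.92 in spleen; Agrp lay 445 bp away. The other 8 V0 genes, Atp6v0a1, Atp6v0a2, Atp6v0a4, Atp6v0b, Atp6v0c, Atp6v0d2, Atp6v0e and Atp6v0e2, had none, and neither had Atp6ap1, Atp6ap2 or Atp6ap1l.

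Adaptor genes had regions in liver in 11 of 28 cases (39.3%), 1 in spleen and 2 in thymus. Over all coding genes the shares were 15.2%, 8.11% and 7.17%. They came from all 5 AP complexes: 3 of 8 genes of AP-1, which works between the trans-Golgi network and endosomes, 2 of 5 of AP-2, the clathrin adaptor of endocytosis, 3 of 7 of AP-3, which serves lysosomes and related organelles, 2 of 4 of AP-4 and 1 of 4 of AP-5.

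Of these, 3 had regions in a pair of lists. Ap2a2, an alpha subunit of AP-2, had a region over its start (chr7:141562101-141562350) at percentile 61.6 in liver and 40.9 in thymus. The region of Ap1g1 (chr8:109778601-109778650) had percentile 19.3 in liver and 0.125 in thymus, among the lowest scores of that list. Ap4b1, the beta subunit of AP-4, had a region over its start (chr3:103809401-103809550) at percentile 17.7 in liver and 2.07 in spleen, and it lay 14 bp from Dclre1b, a nuclease gene of telomere maintenance. The lower rank in spleen and thymus is a position in a shorter list and is not a measured change.

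The other 8 adaptor genes had regions in liver alone. Ap5m1 ranked highest (chr14:49066401-49066450, percentile 77.2), with a region that spanned its gene end and touched Exoc5, an exocyst gene. The region counted for Ap2m1 (chr16:20548401-20548650, percentile 73.6) lay 3492 bp outside that gene and touched Abcf3. Ap1s1 had a region over its start (chr5:137046101-137046150, percentile 57.9). The region of Ap4s1 (chr12:51691901-51692150, percentile 44.8) lay inside the gene, 1059 bp downstream of an annotated start, and overlapped Strn3. Ap3m2 had a region inside the gene (chr8:22805601-22805750, percentile 44.0). Ap1m1 (29.3), Ap3b1 (24.5) and Ap3s1 (3.23) completed the set, and the region of Ap3s1 lay 177 bp from the autophagy gene Atg12. No region was found for Ap1b1, Ap1g2, Ap1m2, Ap1s2, Ap1s3, Ap2a1, Ap2b1, Ap2s1, Ap3b2, Ap3d1, Ap3m1, Ap3s2, Ap4e1, Ap4m1, Ap5b1, Ap5s1 or Ap5z1.

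Vps genes had regions in 8 of 35 cases in liver (22.9%), 5 in spleen and 4 in thymus, beside 15.2%, 8.11% and 7.17% of all coding genes. The VPS13 family, long proteins that carry lipids between membranes, held 3 of the 8 liver genes, 3 of the 5 spleen genes and 2 of the 4 thymus genes, from 4 members. Its genes are also long, from 157429 bp (Vps13c) to 560112 bp (Vps13b), against a median of 17169 bp for coding genes. No share matched for gene length was computed for this family. Outside it, 5 of 31 Vps genes had a liver region (16.1%, near the 15.2% of coding genes).

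Vps13b had the only region away from gene ends that was common to all 3 lists. It lay inside the gene, 40057 bp from its nearest end (chr15:35411001-35411350), at percentile 90.7 in liver, 85.9 in spleen and 85.6 in thymus, the highest value of the 89 genes in both lymphoid lists. Vps13c was in all 3 lists through different regions. Its gene-end region (chr9:67840201-67840450) had percentile 92.7 in liver and 10.5 in thymus, and spleen instead had a region 37109 bp inside the gene (chr9:67877401-67877450, percentile 54.0) that neither of the other lists held. Vps13a had its region (chr19:16780801-16781150) at percentile 80.2 in liver and 24.1 in spleen. Vps13d had none.

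Regions of the other Vps genes were spread over several complexes. The Vps36 region (chr8:22192401-22192850) was the only gene-end region over a promoter window in all 3 lists (percentile 52.8 in liver, 44.5 in spleen, 58.5 in thymus). Vps26b, a cargo-binding subunit of retromer, was counted through a region 4752 bp outside the gene (chr9:26999601-26999750; percentile 67.5 in liver, 28.7 in spleen and 33.1 in thymus) that overlapped Thyn1 and lay 30 bp from Acad8. Vps8, of the CORVET tether of early endosomes, had a region in liver alone, 157 bp downstream of its start (chr16:21423201-21423350, percentile 71.2). Vps26c, of the Commander recycling complex (32.3), and Vps45, a partner of endosomal SNARE proteins (3.78), also had regions in liver alone.

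Of the 21887 coding genes, 18456 had no region in any list, and several small complexes had none either. These were GARP and EARP, tethers for vesicles from endosomes (Vps50, Vps51, Vps52, Vps53 and Vps54), the Vps subunits of ESCRT-I (Vps28, Vps37a, Vps37b, Vps37c and Vps37d) and the ESCRT ATPases Vps4a and Vps4b. The HOPS, CORVET and CHEVI tether genes had 1 of 8 in liver (12.5%, near the 15.2% of coding genes), with none at Vps11, Vps16, Vps18, Vps33a, Vps33b, Vps39 or Vps41. Vps25, Vps26a, Vps29, Vps35, Vps35l, Vps9d1 and Vps72 had none either; Vps72 shares the symbol but encodes a subunit of a chromatin remodelling complex. Just outside the 5 kb limit in liver were Vps26a (5093 bp from the gene, percentile 83.8), Atp6v1e2 (8714 bp, 90.7) and Vps51 (9892 bp, 68.7), while Vps26b lay just inside it.

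**Figure D3:**
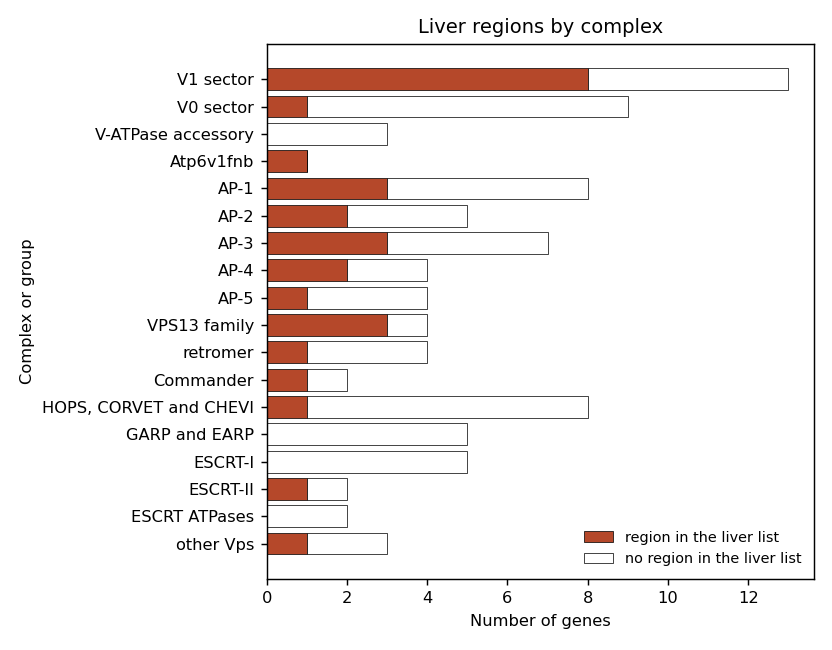
Number of genes per complex or group, with those that have a liver region inside or within 5 kb filled and the rest open. The V1 sector has 8 of 13 filled and the V0 sector 1 of 9. GARP and EARP, ESCRT-I, the ESCRT ATPases and the accessory proteins have none. Over all coding genes 15.2% had a liver region, and the groups are small.

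The regions of these genes sat at gene ends more often than those of other coding genes. In liver, 26 of the 29 distinct regions (89.7%) had their midpoint within 1 kb of an end of some annotated gene, against 60.7% of all liver regions within 5 kb of a coding gene. The shares were 7 of 9 (77.8%, against 36.3%) in spleen and 5 of 6 (83.3%, against 33.8%) in thymus. In liver 22 of the 29 were within 1 kb of an end of the pump, Vps or adaptor gene itself. Counted by gene, 21 of the 89 (23.6%) had a liver region overlapping the stretch within 1 kb of an own end, against 9.09% of coding genes. The same count gave 6 genes in spleen (6.74%, against 2.91%) and 4 in thymus (4.49%, against 2.48%).

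With regions at gene ends left out (a setting added once the data were known), the liver share was below that of coding genes. Then 3 of the 89 genes (3.37%) had a liver region, against 5.13% of coding genes, and these were Vps13b, Vps45 and Ap3m2. In spleen 2 genes were left (2.25%, against 4.61%) and in thymus 1 (1.12%, against 4.25%). These counts are small and no interval was computed for them, so the lower shares are not read as a deficit.

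**Figure D4:**
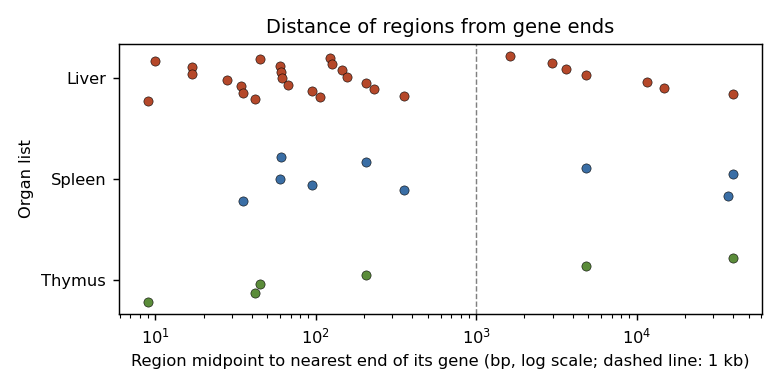
Distance from the midpoint of each region to the nearest end of its pump, Vps or adaptor gene, on a log scale, with 1 point per distinct region and the dashed line at 1 kb. Most points lie left of the line (22 of 29 in liver), and those farthest to the right in each list are the Vps13b region, 40057 bp from an end.

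In liver, score ranks and widths of the regions lay near those of other regions. The median percentile was 52.8 for the 29 liver regions, against 50.7 for all liver regions near coding genes, and the values ran from 3.23 to 93.3. The medians were 24.1 against 42.0 in spleen (9 regions) and 37.0 against 44.8 in thymus (6 regions). Widths ran from 50 to 550 bp in liver, with a median of 150 bp for both sets. Another coding gene lay within 5 kb of 13 of the 29 liver regions (44.8%), against 25.1% of liver regions near coding genes. When each region was counted for its nearest coding gene, 25 of the 89 genes kept a liver region (28.1%, against 12.8% of coding genes). Regions that touched both a pump, Vps or adaptor gene and a neighbour stayed counted for the former. This setting therefore does not settle which gene a shared region belongs to.

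Promoter windows were found for 66 of the 89 genes, and 12 of them (18.2%) had a liver region over a window, against 7.99% of 17492 coding genes with windows. In spleen there were 4 (6.06%, against 2.28%) and in thymus 3 (4.55%, against 1.93%). The 12 windows were rich in G and C, with a median of 64.5% and a ratio of observed to expected CpG of 0.921. These values lay near those of all 1541 coding windows under a liver region (65.7% and 0.916) and above those of the 52 windows of pump, Vps and adaptor genes without a liver region (58.8% and 0.785). When coding genes were split into 10 classes by promoter GC content, again added with the data known, the classes of the 66 genes gave 18.4% with a liver region inside or within 5 kb. The observed share was 31.8% (21 genes).

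Letters that resemble a p53 site were looked for in the same windows. The p53 half-site, a run of 10 bases, was sought without mismatch, and a full site of adjacent half-sites with at most 3 mismatches and the core C and G letters kept was added later, with the data known. Neither was found in the 12 windows under a liver region. Half-sites with other bases between them were not sought as full sites, and regions outside the windows, such as that of Vps13b, were not searched. Over all coding windows, 7.37% held a half-site and 1.35% a full site, and over coding windows under a liver region 6.94% and 3.37%. Under regions common to all 3 lists (220 windows) the shares were 14.5% and 12.3%, and under regions of the liver list alone (938 windows) they were 5.54% and 1.60%. Half-sites were found in the windows of Atp6v1g3, Ap4s1 and Atp6v1e2, none of which lay under a region. A match or its absence describes these letters in these windows and is no measure of binding.

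Other motifs were searched on both strands. The counts are of whole windows, and the liver regions covered from 32 to 300 bases of each of the 12. The core of the CLEAR element, TCACGTGA, which contains the E-box CACGTG, was in 9.46% of the 74 windows of pump, Vps and adaptor genes (7 windows), against 1.23% of all coding windows. Of the 12 windows under a liver region 1 held it (8.33%, against 1.75% of coding windows under a liver region), and of the 52 windows of genes without a liver region 5 did. The core of the NRF1 site, CGCATGCG, was in 2 of the 12, against 18.8% of all coding windows under a liver region and 2.52% of all coding windows. The ETS motif CCGGAAG was in 4 of the 12 (33.3%) and in 16 of the 52 (30.8%), against 23.3% of coding windows under a liver region and 11.6% of all coding windows. Among those 4, the motif of Atp6v1e1 and that of Ap3b1 lay outside the bases covered by the region. The CRE, TGACGTCA, and the YY1 motif, AAGATGGCG, were in 0 of the 12, against 3.96% and 4.09% of coding windows under a liver region and 2.23% and 1.83% of all coding windows.

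A set of 3 windows shows how these motifs fall with and without a region, with the motif letters in capitals. Atp6v0d1 holds the NRF1 and CLEAR cores and lay under a region in liver and spleen. Atp6v1e1 holds the NRF1 core and an ETS motif. Its liver region covered 50 bases of the window, with the NRF1 core inside and the ETS motif outside the region. Vps33a, of the HOPS tether, holds the NRF1 core, the CLEAR core at 2 positions and the YY1 motif, and had no region in any list.
Atp6v0d1 (chr8:105566015-105566314, minus strand): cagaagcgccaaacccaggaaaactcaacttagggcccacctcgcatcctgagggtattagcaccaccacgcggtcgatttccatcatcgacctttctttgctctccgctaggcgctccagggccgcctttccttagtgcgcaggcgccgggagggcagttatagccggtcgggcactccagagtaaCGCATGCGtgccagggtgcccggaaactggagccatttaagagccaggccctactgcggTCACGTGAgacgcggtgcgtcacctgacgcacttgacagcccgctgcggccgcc
Atp6v1e1 (chr6:120822649-120822948, minus strand): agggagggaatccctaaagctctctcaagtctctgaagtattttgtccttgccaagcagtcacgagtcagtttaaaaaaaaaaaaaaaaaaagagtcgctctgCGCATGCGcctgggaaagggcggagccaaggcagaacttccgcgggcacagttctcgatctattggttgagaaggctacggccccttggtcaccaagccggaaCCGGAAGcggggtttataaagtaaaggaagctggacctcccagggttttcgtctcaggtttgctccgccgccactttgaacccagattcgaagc
Vps33a (chr5:123572966-123573265, minus strand): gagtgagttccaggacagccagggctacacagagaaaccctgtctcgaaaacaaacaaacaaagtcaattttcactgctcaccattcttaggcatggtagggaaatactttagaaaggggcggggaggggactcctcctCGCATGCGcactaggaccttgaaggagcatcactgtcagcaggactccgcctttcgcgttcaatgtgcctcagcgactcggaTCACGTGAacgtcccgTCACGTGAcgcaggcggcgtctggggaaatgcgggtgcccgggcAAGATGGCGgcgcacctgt

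Other genes of the lysosome and of vesicle traffic were counted from 6 lists. Of their 152 genes, 22 (14.5%) had a liver region, 11 (7.24%) a spleen region and 9 (5.92%) a thymus region, each near the share of all coding genes (15.2%, 8.11% and 7.17%). The ESCRT genes outside the Vps symbols had the largest liver share, with 8 of 21 genes (38.1%), 3 in spleen and 2 in thymus. Pdcd6ip, which encodes the ESCRT partner ALIX, was in all 3 lists (percentile 77.3 in liver, 87.4 in spleen, 87.1 in thymus). Hgs, of ESCRT-0, ranked at 80.6 in liver and 8.22 in spleen. Stam (77.7) and the ESCRT-III genes Chmp7, Chmp3, Chmp2a, Chmp2b and Chmp5 completed the 8.

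Lysosomal hydrolase and membrane protein genes had 4 of 47 in liver (8.51%), 5 in spleen and 3 in thymus. Psap, the precursor of the saposins, and Scarb2, the receptor that carries glucocerebrosidase, were in all 3 lists, at percentiles of 85.8 and 69.3 in liver, 15.8 and 69.3 in spleen, and 20.2 and 91.3 in thymus. Coat genes of clathrin, COPI and COPII had 5 of 32 in liver (15.6%), led by Copg1 (91.6) and Sec24a (58.8), 0 in spleen and 1 in thymus. Lysosome regulators had 2 of 17 (Lamtor3 at 74.0, and Fnip1 in all 3 lists at 72.9, 15.3 and 10.2). Rab, tether and phosphoinositide genes had 2 of 23 (Pik3r4 in all 3 lists at 63.0, 29.7 and 60.6, and Rbsn at 8.01), and pump partners 1 of 12 (Oxr1 in all 3 lists at 33.3, 22.8 and 63.5). No test was made on these lists.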

How the data were processed

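p53 ChIP-seq of liver, spleen and thymus was analysed from the deposited region lists, 1 per organ, each with 6 columns and no header. The authors' score per region is on a scale not given in the sources used here and was used as a rank percentile within its list (ties averaged). Per the submitters' processing notes the build is mm10. The list names mention irradiation and IgG, but caller, aligner, control and any pooling of libraries are not given in these sources, and depth is unknown.

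Genes and promoter windows came from RefSeq (GRCm38.p6), with 49943 genes of any kind. A region counted for a gene when at least 1 bp lay inside it or within 5 kb, for every coding gene it reached. Named genes are those with a region in any list, with full values for genes in 2 or 3 lists and the 10 other genes ranking highest in liver. Genes and lists were chosen with earlier results of these data known, and no p-value was computed. The overlap count was tested on simulated regions. Python 3.11.15, pandas 2.3.3 and scipy 1.17.1 were used. Alternatives changed the window, score threshold, list length, overlap rule and gene assignment.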

Additional observations from a re-analysis of the deposited data

How the results depend on the processing

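The liver count of 29 genes ran from 20 to 32 under the other windows (inside the gene, within 10 kb, within 1 kb of a gene end), the midpoint rule, nearest-gene assignment and lists of equal length, and its ratio to the share of all coding genes ran from 2.02 to 2.60 there. With the lower-scoring 50% of each list removed, liver had 16 genes, spleen 2 and thymus 2, with 1 gene in all 3 lists; the liver ratio was 2.15 and the spleen and thymus ratios were 0.673 and 0.731. Within 1 kb of either gene end 1 gene was in all 3 lists, and the spleen and thymus ratios were 2.32 and 1.81, against 1.25 and 0.940 in the main count. With regions at gene ends left out, liver kept 3 genes, spleen 2 and thymus 1, of which 2 were in liver alone and 1 in all 3 lists, and the ratios were 0.658, 0.488 and 0.264; these fewer regions follow from the setting itself. For the other moves the cause was not tested. Unknown depth and 1 list per organ limit every count. No paired analysis was possible because each organ has 1 list and no values per library, and no library could be left out.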
